A study of Mus musculus with 26 samples.

Results

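The genes described here are the Wnt ligands, their receptors, the secreted antagonists and the feedback targets of the Wnt pathway, chosen by gene symbol. They are the Wnt, Fzd, Dkk, Sfrp and Rspo families, Lgr4, Lgr5, Lgr6, Lrp5, Lrp6, Axin2, Lef1, Tcf7, Sp5, Notum, Nkd1 and Nkd2. The symbols matched 53 of the 55291 genes listed in each of the 2 tables of counts, namely 19 ligands, 12 Fzd and Lrp receptors, 7 Rspo ligands and Lgr receptors, 8 Dkk and Sfrp antagonists and 7 targets. The rule reads symbols and no measured value. After genes with too few counts had been set aside, 46 of the 53 could be tested in the first table and 35 in the second.

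RNA was sequenced from mouse embryonic stem cells (ESCs) of the E14 line and from neural progenitor cells (NPCs) made from them by 2 days on laminin in N2B27 medium, in 26 libraries of 10 groups. The rescue lines gave 8 libraries, 2 for each rescue protein in each cell type (ESC-WT and NPC-WT, ESC-ΔZF1 and NPC-ΔZF1). All 4 groups carry endogenous CTCF tagged with the mAID degron and eGFP, OsTIR1(F74G) at Rosa26, an mCherry reporter at Hb9 and doxycycline-inducible Flag-Halo-CTCF at Tigre, which is either WT or lacks the RNA binding zinc finger ZF1 (ΔZF1). All 4 were exposed for 24 h to 1 µM 5-Ph-IAA, which degrades the endogenous CTCF, and 1 µg/ml doxycycline, which induces the rescue protein. There is 1 line for each rescue protein, so a comparison of the proteins is also one of the lines. The other 18 libraries came from parental E14 cells (WT) and from 2 lines in which the RNA of Podxl or of Grb10 is truncated, with 3 libraries each as ESCs and as NPCs. Podxl pA and Grb10 pA cells are homozygous for an eGFP cassette with an SV40 polyadenylation signal after the first coding exon of the named gene and were made from E14 cells. They are edited clones set against their parental cells, so truncation and line cannot be told apart. ESCs of every line were grown with LIF, 3 µM CHIR99021 and 1 µM PD0325901. CHIR99021 inhibits GSK3 and so activates the Wnt pathway, and it is not named for the NPC medium. In every comparison of NPCs with ESCs, differentiation and the loss of CHIR99021 cannot be told apart.

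Wnt ligands are lipid-modified secreted proteins that bind a Frizzled (Fzd) receptor and the co-receptor Lrp5 or Lrp6, which stops the complex of Axin, Apc and GSK3 from marking β-catenin for destruction. β-catenin then works with DNA binding partners of the Tcf and Lef family, and among the genes it switches on are the pathway's own inhibitors, such as Axin2, Notum and Nkd1. R-spondins (Rspo) bind Lgr receptors and keep Fzd proteins at the cell surface. Some Dkk proteins, such as Dkk1, bind Lrp5 and Lrp6, Sfrp proteins bind the ligands, and Notum removes the lipid from the ligands. In ESCs the pathway supports self-renewal, and in the early nervous system it is known for giving cells a posterior or dorsal identity.

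Promoter sequences of 3 genes are shown because the comparisons below turn on them: Axin2 and Sp5, which are standard readouts of β-catenin, and Wnt6, the ligand with the highest level in the rescue NPCs. Each run is the 250 bases before the RefSeq transcription start on GRCm38.p6, on the plus strand. Capitals mark a match to the Tcf and Lef motif, searched as CTTTGAA and CTTTGAT on both strands. The windows are chr11:108920099-108920348 for Axin2, chr2:70474673-70474922 for Sp5 and chr1:74771642-74771891 for Wnt6.
Axin2: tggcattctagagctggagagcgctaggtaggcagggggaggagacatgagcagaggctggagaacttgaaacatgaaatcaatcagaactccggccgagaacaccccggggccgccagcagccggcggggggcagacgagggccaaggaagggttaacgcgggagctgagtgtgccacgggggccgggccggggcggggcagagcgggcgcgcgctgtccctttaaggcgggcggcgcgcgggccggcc
Sp5: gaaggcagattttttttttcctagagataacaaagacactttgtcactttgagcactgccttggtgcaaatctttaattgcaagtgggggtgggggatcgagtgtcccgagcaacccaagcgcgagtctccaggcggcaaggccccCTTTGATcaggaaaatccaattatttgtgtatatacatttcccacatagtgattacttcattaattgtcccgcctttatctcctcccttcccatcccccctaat
Wnt6: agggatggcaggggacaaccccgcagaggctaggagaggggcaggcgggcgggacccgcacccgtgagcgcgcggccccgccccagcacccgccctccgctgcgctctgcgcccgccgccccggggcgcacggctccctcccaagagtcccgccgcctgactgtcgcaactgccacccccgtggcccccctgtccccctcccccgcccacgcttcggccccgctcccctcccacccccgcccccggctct
The Sp5 window held 1 match, 104 bases before the start, and the other 2 windows held 0. Among all 32851 RefSeq promoter windows of 300 bases, 2842 (8.65%) held either motif. A promoter was listed for 35 of the 53 genes, with 42 windows. A match was found in 4 of the 42 windows, a share near that of all windows, and these belonged to 4 genes. These were Sp5, Dkk1 at 117 bases before the start, Wnt5b at 71 and Wnt11 at 51 on the reverse strand.

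A rescue library held 6425179 to 28730435 counts on genes, and a library of the second table, with E14 and the truncation lines, held 1907505 to 8845087. Normalized counts below are scaled within a table and cannot be set against those of the other table. The truncated genes were low in their own lines, with 97.2 to 113 normalized counts of Podxl in Podxl pA NPCs against 1082 to 1209 in E14 NPCs, and 243 to 277 of Grb10 in Grb10 pA NPCs against 3587 to 3798. Ctcf RNA, whose counts can include the transgene, was higher in ESC-ΔZF1 (14660 to 15168 normalized counts) than in ESC-WT (9914 to 10179). It was also higher in NPC-ΔZF1 (13848 to 14077) than in NPC-WT (7913 to 8368). In NPC-WT the 7 pluripotency markers fell, and 3 of the 6 neural progenitor markers tested rose (Sox1 from a mean of 108 to 342), while Hes5 had 0 counts and Pax6 had means of 39.7 in ESC-WT and 31.5 in NPC-WT. Markers of other lineages were present. The sum of 9 extraembryonic endoderm markers was 374 to 763 in ESC-WT, 2099 to 2320 in NPC-WT and 15405 to 16188 in NPC-ΔZF1, and that of 6 surface ectoderm markers was 166 to 199 in ESC-WT, 1936 to 1944 in NPC-WT and 1392 to 1419 in NPC-ΔZF1. In the second table the endoderm sum was 59.8 to 68.7 in E14 ESCs and 1360 to 1575 in E14 NPCs. The surface ectoderm sum was 24.0 to 38.6 in E14 ESCs and 184 to 206 in E14 NPCs. In bulk RNA, a change in the share of a cell type and a change in RNA per cell cannot be told apart. The libraries NPC-WT replicates 1 and 2 differed more from each other than other pairs, and in ESC Grb10 pA replicate 2 the 10 most abundant genes held 15.5% of the counts. Because the counting did not use strand, reads of Axin2, Fzd5, Fzd6, Lef1, Notum, Rspo3, Sfrp2, Wnt5a, Wnt7b and Wnt11 cannot be told apart from those of antisense genes where their exons overlap, over 152 to 1233 bases (918 for Notum and 1208 for Lef1). Nothing in the labels says that replicates came from separate cultures, so p-values measure only the spread between these libraries.

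Relative to ESCs, many Wnt genes were called higher or lower in NPCs of every line. A gene was called where its adjusted p-value was no higher than 0.05 and its log2 fold change was 0.5 or more up or down, with edgeR's quasi-likelihood F test and Benjamini-Hochberg adjustment over all genes tested, which is the test behind every adjusted p-value below. Values followed by an SE are log2 fold changes, of NPCs over ESCs of the same line unless another comparison is named. In NPC-WT, 22 of the 46 Wnt genes tested were higher than in ESC-WT and 12 were lower, where 22.0% and 19.9% of all genes were. In NPC-ΔZF1, 24 were higher than in ESC-ΔZF1 and 12 lower (20.4% and 16.9% of all genes). E14 NPCs had 16 of 35 higher and 8 lower (16.5% and 16.3%), Podxl pA NPCs 17 and 9 (17.1% and 14.7%) and Grb10 pA NPCs 14 and 8 (17.2% and 17.4%). A gene expressed only in NPCs passes the filter through the group in which it is high and had to differ, so these shares say nothing about the family as such. Of the 35 genes tested in both tables, 9 were higher in NPCs of all 5 lines (Fzd2, Fzd6, Fzd7, Lef1, Nkd2, Rspo1, Wnt4, Wnt7b and Wnt8a) and 6 were lower in all 5 (Fzd5, Fzd10, Notum, Sfrp1, Sp5 and Wnt3a). Only Fzd8, Lrp6 and Wnt11 were called in none of the 5 lines, and Lgr4 and Sfrp2 were called in opposite directions in the 2 tables. Of all 13226 genes tested in both tables, 909 (6.87%) were higher in all 5 lines, 711 (5.38%) lower in all 5 and 707 (5.35%) called in opposite directions.

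**Figure D1:**
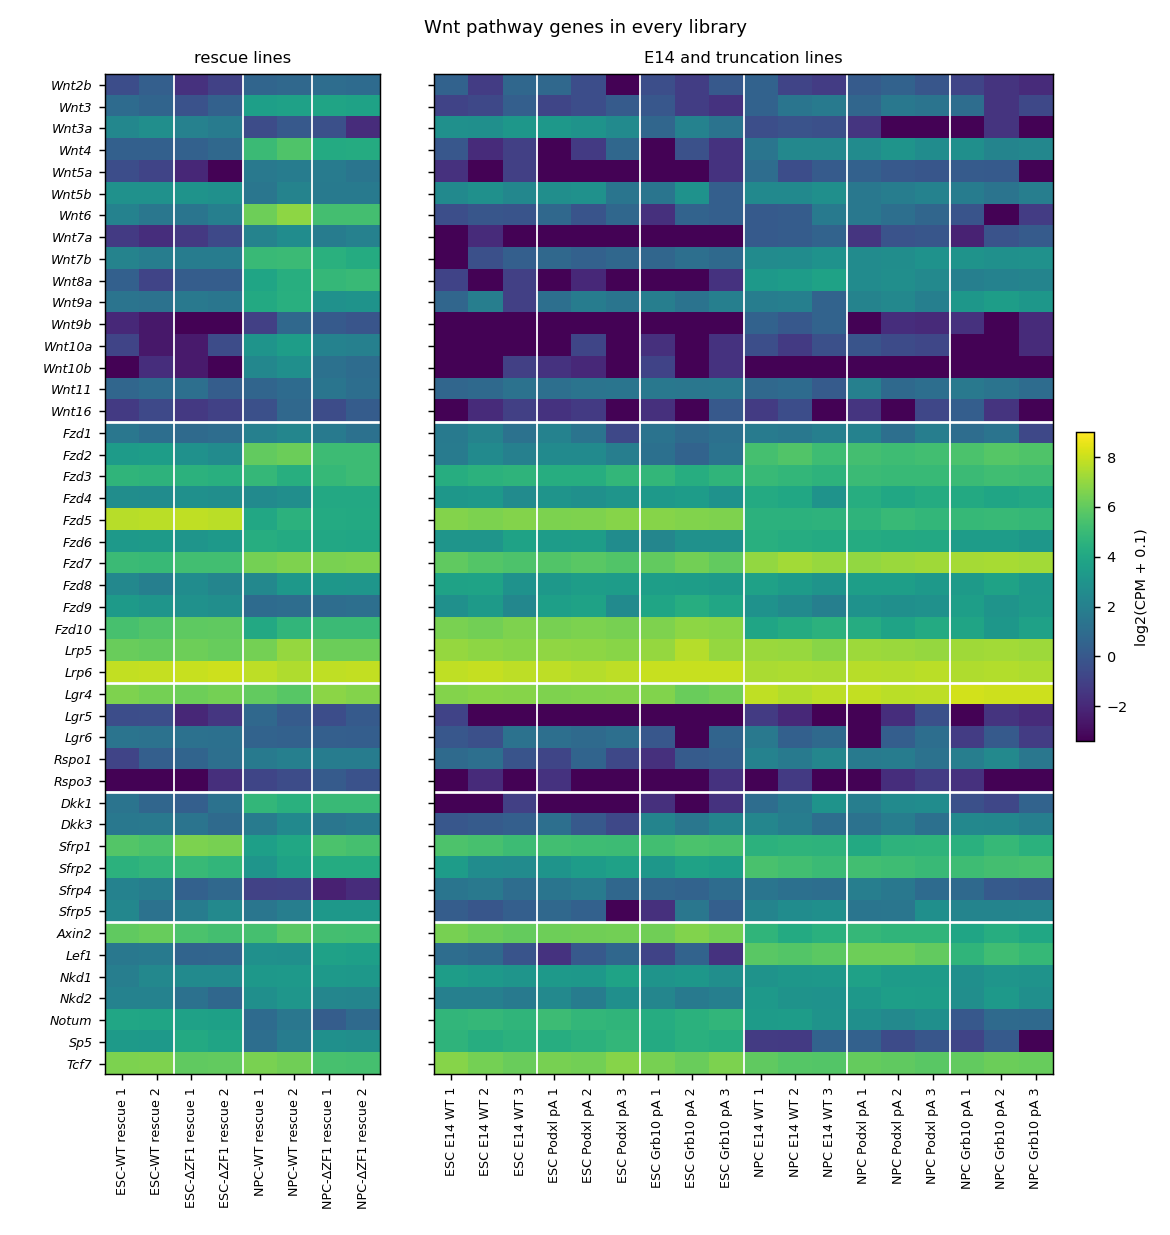
Level of each Wnt gene tested in at least 1 table (rows, ordered by role) in every library (columns), as log2(CPM + 0.1), with the rescue lines on the left and the E14 and truncation lines on the right. The ligands Wnt4, Wnt6, Wnt7b and Wnt8a are bright in the 4 rescue NPC libraries, and Fzd5 is dimmer in NPCs than in ESCs of every line.

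Most of the ligands tested in the rescue lines were higher in NPCs. Of 16 ligands, 11 rose in NPC-WT and 2 fell, where 22.0% and 19.9% of all genes did, and some of the 11 passed the filter only through NPCs. Wnt6, a ligand of epithelia and of the surface ectoderm next to the neural plate, had normalized counts of 72.8 and 48.3 in ESC-WT, 45.3 and 66.7 in ESC-ΔZF1, 1368 and 2095 in NPC-WT and 691 and 695 in NPC-ΔZF1. Both NPC-WT libraries were above both NPC-ΔZF1 libraries, and all NPC libraries were far above all ESC libraries, with a log2 fold change of 4.92 (SE 0.28, adjusted p = 1.09e-06) in WT. Wnt10a, which lies 6193 bases from Wnt6 on chromosome 1, was likewise highest in NPC-WT, with 8.09 and 1.15 in ESC-WT, 1.30 and 10.7 in ESC-ΔZF1, 140.5 and 200.1 in NPC-WT and 74.0 and 68.8 in NPC-ΔZF1. Its log2 fold change in NPC-WT was 5.63 (SE 0.62), from 4 reads in the 2 ESC-WT libraries. Wnt4, which acts in kidney and gonad formation as well as in the neural tube, had 21.6 and 21.9 in ESC-WT, 22.0 and 28.6 in ESC-ΔZF1, 583 and 832 in NPC-WT and 323 and 326 in NPC-ΔZF1, and it rose by 5.01 (SE 0.26, adjusted p = 7.30e-07) on the log2 scale.

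Wnt7b, expressed in developing brain and epithelia, showed 75.5 and 62.1 in ESC-WT, 60.9 and 59.6 in ESC-ΔZF1, 559 and 593 in NPC-WT and 391 and 333 in NPC-ΔZF1. Wnt7a, its closest relative, was lower, with 5.39 and 3.45 in ESC-WT, 5.18 and 9.53 in ESC-ΔZF1, 76.2 and 106 in NPC-WT and 59.7 and 71.4 in NPC-ΔZF1. Both genes rose in NPC-WT, with log2 fold changes of 3.10 (SE 0.18) and 4.42 (SE 0.46). Wnt9a had 43.1 and 40.3 in ESC-WT, 51.8 and 46.5 in ESC-ΔZF1, 303 and 376 in NPC-WT and 127 and 135 in NPC-ΔZF1, and its WT value rose by 3.03 (SE 0.21) on the log2 scale. Wnt8a, which patterns the posterior embryo, gave 21.6 and 8.05 in ESC-WT, 19.4 and 19.1 in ESC-ΔZF1, 262 and 368 in NPC-WT and 517 and 555 in NPC-ΔZF1. Both NPC-ΔZF1 libraries lay above both NPC-WT libraries, and its log2 fold change was 4.64 (SE 0.34) in WT and 4.79 (SE 0.29) in ΔZF1.

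Wnt3, a primitive streak ligand, had 32.3 and 25.3 in ESC-WT, 13.0 and 22.6 in ESC-ΔZF1, 214 and 229 in NPC-WT and 252 and 236 in NPC-ΔZF1, with a rise of 2.99 (SE 0.25) in WT and 3.76 (SE 0.25) in ΔZF1. Wnt10b was almost absent from ESCs, with 0 and 3.45 in ESC-WT, 1.30 and 0 in ESC-ΔZF1, 88.2 and 119.7 in NPC-WT and 39.2 and 33.1 in NPC-ΔZF1. From 3 reads in ESC-WT to 197 in NPC-WT it rose 40.8-fold (95% counting interval 13.7 to 199). Wnt5a, the main ligand of the β-catenin-independent branch, had 10.8 and 8.05 in ESC-WT, 2.59 and 0 in ESC-ΔZF1, 52.3 and 59.1 in NPC-WT and 57.8 and 44.8 in NPC-ΔZF1, and its rise in WT was 2.61 (SE 0.46) on the log2 scale. In ΔZF1, where ESCs had 2 reads of Wnt5a, the ratio was 41.4-fold (95% counting interval 11.3 to 345). Such intervals cover counting error only.

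The ligands that fell were Wnt3a and Wnt5b. Wnt3a, a strong activator of β-catenin expressed in the streak and tail bud, had 86.3 and 115 in ESC-WT, 71.2 and 57.2 in ESC-ΔZF1, 10.46 and 16.7 in NPC-WT and 11.8 and 3.24 in NPC-ΔZF1, and log2 fold changes of -3.00 (SE 0.45) in WT and -3.06 (SE 0.45) in ΔZF1. Wnt5b had 127 and 125 in ESC-WT, 137 and 123 in ESC-ΔZF1, 47.8 and 75.8 in NPC-WT and 56.6 and 55.8 in NPC-ΔZF1, with log2 fold changes of -1.08 (SE 0.25) and -1.21 (SE 0.23). Neither gene had an NPC library as high as any ESC library. Wnt3a lies 16175 bases from Wnt9a on chromosome 11, and the neighbours moved in opposite directions in both rescue lines. Wnt9b was also called at a low level, from 2 reads in ESC-WT to 28 in NPC-WT, which is 8.69-fold (95% counting interval 2.19 to 75.3). Wnt2b was called in ΔZF1, at 34.2 and 31.8 normalized counts in NPC-ΔZF1, and not in WT, and the difference between the lines, 1.88 (SE 0.63) on the log2 scale, did not pass the test. The untested ligands Wnt1, Wnt2 and Wnt8b had at most 13.6 normalized counts in any library.

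In E14 cells and the truncation lines, 8 ligands were tested. Wnt4, Wnt7b and Wnt8a rose in all 3 of these lines, Wnt3 rose in E14 and Podxl pA, Wnt9a rose in Grb10 pA, and Wnt3a fell in all 3. Wnt8a was the ligand called with the highest mean in E14 NPCs, while Wnt4 and Wnt7b had higher means than Wnt8a in Podxl pA NPCs and Wnt9a had the highest in Grb10 pA NPCs. Wnt8a had 2.03, 0 and 1.81 in E14 ESCs, 0, 0.729 and 0 in Podxl pA ESCs and 0, 0 and 1.11 in Grb10 pA ESCs. In NPCs it had 43.8, 50.6 and 61.3 in E14 NPCs, 27.6, 30.7 and 24.9 in Podxl pA NPCs and 17.3, 19.8 and 20.7 in Grb10 pA NPCs, so that E14 NPCs were highest and every NPC library was above every ESC library. With 3 reads in E14 ESCs, the rise in E14 was 47.8-fold (95% counting interval 16.0 to 235). Wnt4 rose by 3.19 (SE 0.58) on the log2 scale in E14, and in Grb10 pA from 3 reads to 107, which is 22.3-fold (95% counting interval 7.44 to 110.0). Wnt6 was not tested, since it had at most 14.1 normalized counts in any library. The sum over all 19 ligands, in CPM (counts scaled to library size) per kilobase of exon, was 9.93 to 10.6 in ESC-WT, 76.2 to 108 in NPC-WT and 57.3 to 57.4 in NPC-ΔZF1. It was 6.77 to 8.18 in E14 ESCs and 13.5 to 17.3 in E14 NPCs. The tables were not tested against each other.

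Among the 12 Fzd and Lrp receptors, members moved in both directions. Their summed level was 87.4 to 88.8 CPM per kilobase in ESC-WT and 78.4 to 90.1 in NPC-WT. Of the 12, 5 rose and 3 fell in NPC-WT, where 22.0% and 19.9% of all genes did. Fzd5, a receptor needed for eye and yolk sac development, was the Fzd with the highest level per length in ESC-WT and the receptor with the largest fall in both rescue lines. It had 3558 and 3673 in ESC-WT, 3953 and 3649 in ESC-ΔZF1, 288 and 414 in NPC-WT and 315 and 304 in NPC-ΔZF1, and its log2 fold change was -3.38 (SE 0.16, adjusted p = 5.83e-07) in WT. In the second table it had 487, 433 and 482 in E14 ESCs, 438, 458 and 499.8 in Podxl pA ESCs and 502, 469 and 453 in Grb10 pA ESCs, against 112, 108 and 115 in E14 NPCs, 119, 147 and 129 in Podxl pA NPCs and 139, 144 and 134 in Grb10 pA NPCs. Its log2 fold change in E14 was -2.07 (SE 0.10), and no NPC library of either table reached an ESC library. Fzd10 had 749 and 862 in ESC-WT, 1052 and 1096 in ESC-ΔZF1, 302 and 473 in NPC-WT and 585 and 589 in NPC-ΔZF1, with -1.08 (SE 0.19) in WT. In E14 and the truncation lines the same receptor had 419, 379 and 460.0 in E14 ESCs, 408, 435 and 406 in Podxl pA ESCs and 458, 555 and 514 in Grb10 pA ESCs, against 69.4, 88.4 and 112 in E14 NPCs, 91.1, 64.1 and 84.8 in Podxl pA NPCs and 65.6, 40.7 and 60.6 in Grb10 pA NPCs, and its log2 fold change in E14 was -2.22 (SE 0.15).

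Fzd2 and Fzd7 took the opposite course. Fzd2 had 183 and 200.2 in ESC-WT, 127 and 105 in ESC-ΔZF1, 1130.0 and 1303 in NPC-WT and 598 and 597 in NPC-ΔZF1, which is a rise of 2.65 (SE 0.15, adjusted p = 1.04e-06) in WT and 2.37 (SE 0.15) in ΔZF1. E14 and the truncation lines gave Fzd2 values of 15.3, 26.4 and 18.1 in E14 ESCs, 27.0, 27.0 and 16.8 in Podxl pA ESCs and 10.1, 6.44 and 11.1 in Grb10 pA ESCs, against 187, 227 and 165 in E14 NPCs, 185, 166 and 175 in Podxl pA NPCs and 207, 245 and 226 in Grb10 pA NPCs. In both tables all NPC libraries were above all ESC libraries. Fzd7, a receptor linked to the self-renewal of ESCs, had 585 and 542 in ESC-WT, 674 and 671 in ESC-ΔZF1, 1512 and 1731 in NPC-WT and 1577 and 1654 in NPC-ΔZF1, with 1.53 (SE 0.12) in WT. In E14 and the truncation lines Fzd7 had 293, 236 and 214 in E14 ESCs, 232, 265 and 233 in Podxl pA ESCs and 302, 385 and 307 in Grb10 pA ESCs, against 592, 718 and 641 in E14 NPCs, 602, 659 and 703 in Podxl pA NPCs and 758, 781 and 725 in Grb10 pA NPCs, and its rise in E14 was 1.39 (SE 0.11).

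Fzd6, a receptor of planar cell polarity, had 167 and 182 in ESC-WT, 146 and 166 in ESC-ΔZF1, 357 and 321 in NPC-WT and 288 and 265 in NPC-ΔZF1, a rise of 0.95 (SE 0.16) in WT. Its values in the second table were 38.6, 39.1 and 61.6 in E14 ESCs, 50.7, 53.2 and 28.8 in Podxl pA ESCs and 22.2, 33.8 and 33.2 in Grb10 pA ESCs, against 101, 89.8 and 84.9 in E14 NPCs, 87.5, 82.5 and 78.5 in Podxl pA NPCs and 50.9, 49.99 and 40.7 in Grb10 pA NPCs, with a rise of 1.05 (SE 0.20) in E14. Grb10 pA NPCs were the lowest NPCs for Fzd6, and their rise of 0.70 lost its call without Grb10 pA ESC replicate 1 (adjusted p = 0.0970). Fzd9 had 178 and 144 in ESC-WT, 129.5 and 117 in ESC-ΔZF1, 32.1 and 34.9 in NPC-WT and 34.8 and 36.3 in NPC-ΔZF1, and its log2 fold change in WT was -2.25 (SE 0.23). Fzd9 was not called in E14, and its values were 32.5, 47.9 and 23.5 in E14 ESCs, 56.1, 61.2 and 26.4 in Podxl pA ESCs and 69.6, 91.8 and 71.8 in Grb10 pA ESCs, against 34.7, 26.4 and 17.3 in E14 NPCs, 34.8, 31.6 and 33.4 in Podxl pA NPCs and 54.6, 37.2 and 47.9 in Grb10 pA NPCs. Its value of -0.66 in Podxl pA lost its call without ESC replicate 1 or 2 or any NPC replicate of that line, with adjusted p-values from 0.0551 to 0.2495, and that of -0.68 in Grb10 pA without ESC replicate 2 (adjusted p = 0.0543).

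Fzd4 separated the rescue lines, with 111 and 108 in ESC-WT, 123 and 117 in ESC-ΔZF1, 102 and 114 in NPC-WT and 298 and 293 in NPC-ΔZF1. The NPC-ΔZF1 libraries stood above all others, and the log2 fold change over ESCs was -0.03 (SE 0.17) in WT, which was not called, and 1.30 (SE 0.15) in ΔZF1. Fzd4 values in the second table were 40.7, 43.9 and 27.2 in E14 ESCs, 36.7, 32.1 and 38.4 in Podxl pA ESCs and 44.4, 49.9 and 35.4 in Grb10 pA ESCs, against 84.5, 72.7 and 36.2 in E14 NPCs, 92.3, 74.6 and 87.1 in Podxl pA NPCs and 80.8, 69.8 and 79.8 in Grb10 pA NPCs. The rise in E14, 0.76 (SE 0.23), lost its call without E14 NPC replicate 2 (adjusted p = 0.0568), and E14 NPC replicate 3 lay among the ESC libraries. Fzd3 in that table had 91.5, 111 and 116 in E14 ESCs, 93.9, 91.8 and 129.8 in Podxl pA ESCs and 132, 91.8 and 122 in Grb10 pA ESCs, against 146, 133 and 113 in E14 NPCs, 156, 146 and 142 in Podxl pA NPCs and 153, 169 and 161 in Grb10 pA NPCs. It was called in Podxl pA alone, at 0.55 (SE 0.15), a value that was 0.49 without ESC replicate 1 of that line and 0.46 without ESC replicate 2. Fzd1 had 48.5 and 35.7 in ESC-WT, 31.1 and 34.5 in ESC-ΔZF1, 69.5 and 84.9 in NPC-WT and 54.7 and 39.6 in NPC-ΔZF1, and its rise of 0.91 in WT lost its call without ESC-WT replicate 2 (adjusted p = 0.244).

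The co-receptors moved little. Lrp5 had 1248 and 1165 in ESC-WT, 1360.0 and 1205 in ESC-ΔZF1, 1495 and 2284 in NPC-WT and 1315 and 1301 in NPC-ΔZF1, where NPC-WT replicate 2 stood apart from the other libraries. Its rise of 0.64 (SE 0.18) in WT was 0.33 without that library, below the cutoff of 0.5, and lost its call also without ESC-WT replicate 1 (adjusted p = 0.0508) or replicate 2 (adjusted p = 0.100). Lrp6 had 4078 and 4193 in ESC-WT, 4439 and 4671 in ESC-ΔZF1, 3802 and 3256 in NPC-WT and 4016 and 4102 in NPC-ΔZF1 and was called nowhere. Its log2 fold changes in the 5 lines lay between -0.43 in Grb10 pA and -0.06 in Podxl pA. Fzd8 was not called either, with values between -0.20 in E14 and 0.71 in ΔZF1.

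**Figure D2:**
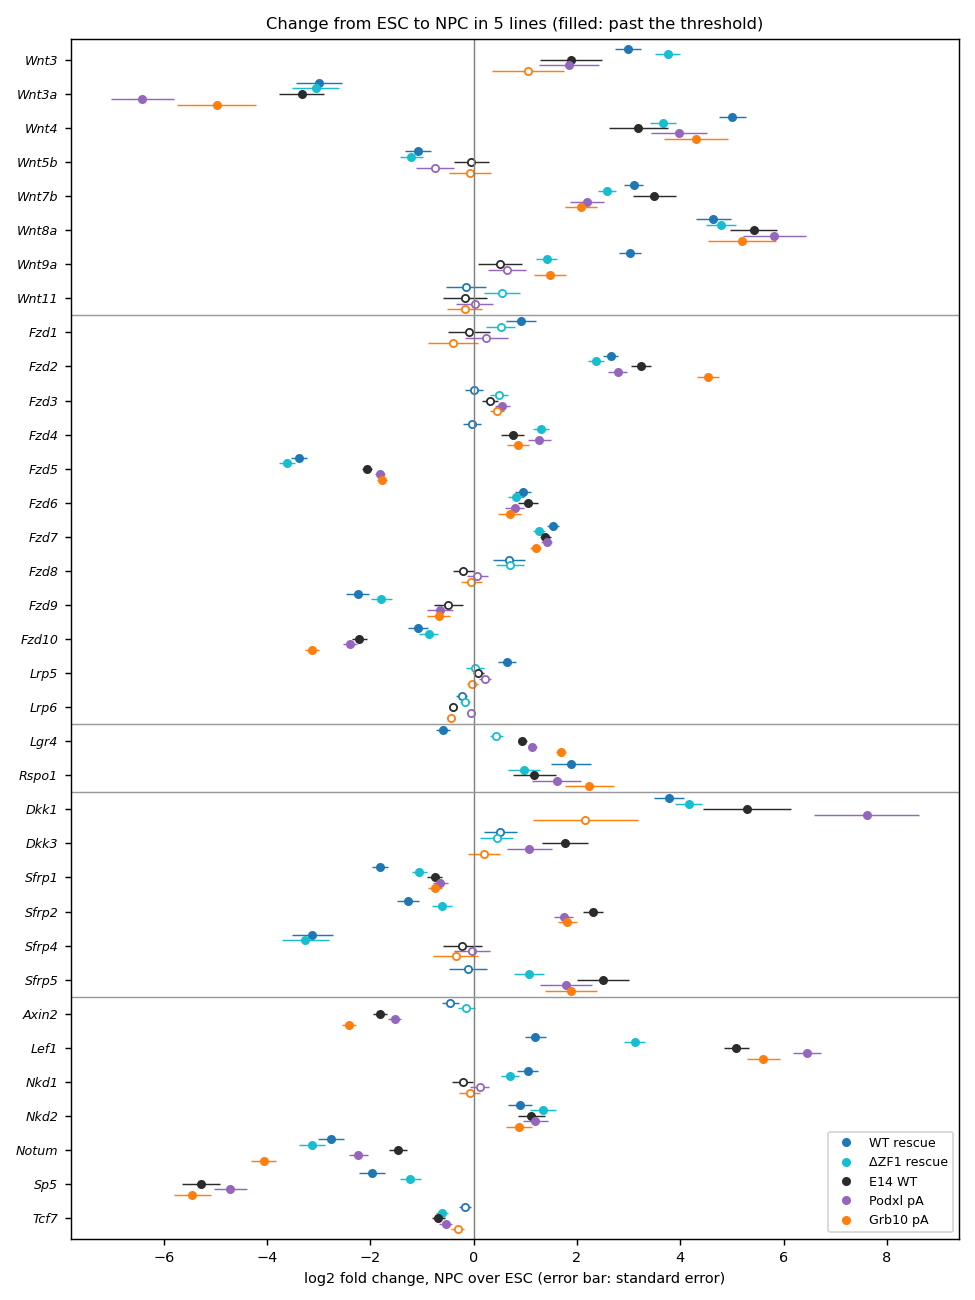
Log2 fold change of NPCs over ESCs in each of the 5 lines, for the 35 Wnt genes tested in both tables, ordered by role. Lef1 lies at 1.20 in WT rescue and at 5.08 in E14, and Sfrp2 lies below 0 in both rescue lines and above 0 in E14, Podxl pA and Grb10 pA.

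Lgr4, the Lgr receptor with the highest level in these cells, was called in opposite directions in the 2 tables. In the rescue lines it had 1739 and 1485 in ESC-WT, 1346 and 1507 in ESC-ΔZF1, 1155 and 976 in NPC-WT and 2010.3 and 1853 in NPC-ΔZF1. It fell in NPC-WT, with a log2 fold change of -0.59 (SE 0.13, adjusted p = 0.00418), and this value was -0.48 without ESC-WT replicate 1 and -0.45 without NPC-WT replicate 2, below the cutoff in size. In NPC-ΔZF1 the log2 fold change over ESC-ΔZF1 was 0.44 (SE 0.13, adjusted p = 0.0188), which is under the cutoff too. Lgr4 values in the second table were 492, 525 and 493 in E14 ESCs, 451, 472 and 478 in Podxl pA ESCs and 463, 339.7 and 383 in Grb10 pA ESCs, against 1048, 874 and 999.8 in E14 NPCs, 1068, 994 and 1022 in Podxl pA NPCs and 1346, 1256 and 1249.8 in Grb10 pA NPCs. There it rose in all 3 lines, by 0.94 (SE 0.09) in E14, 1.14 (SE 0.09) in Podxl pA and 1.69 (SE 0.09) in Grb10 pA, with no overlap between NPC and ESC libraries.

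Rspo1 had 8.09 and 20.7 in ESC-WT, 24.6 and 36.9 in ESC-ΔZF1, 56.8 and 66.7 in NPC-WT and 60.9 and 60.3 in NPC-ΔZF1, a rise of 1.88 (SE 0.38) in WT that was 2.90 without ESC-WT replicate 2, and it rose in all 5 lines. Its rise of 0.97 in ΔZF1 lost its call without any of the 4 libraries compared, with adjusted p-values between 0.0509 without ESC-ΔZF1 replicate 2 and 0.213 without ESC-ΔZF1 replicate 1. Rspo3 rose from 0 reads in ESC-WT to 18 in NPC-WT, which is at least 3.72-fold when 3 reads over the group are allowed for the 0. Lgr5, a marker of Wnt-responsive stem cells, was called in ΔZF1, from 6 reads to 45, and Lgr6 fell in both rescue lines, with log2 fold changes of -0.82 (SE 0.30) in WT and -0.90 (SE 0.28) in ΔZF1. Lgr5 and Lgr6 stayed below 50 normalized counts in every library, and Rspo2 and Rspo4 were not tested.

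The secreted antagonists moved in both directions. Dkk1, an inhibitor of Lrp5 and Lrp6 and itself a target of β-catenin, was low in ESCs and had 43.1 and 26.5 in ESC-WT, 20.7 and 40.5 in ESC-ΔZF1, 490.2 and 394 in NPC-WT and 555 and 555 in NPC-ΔZF1. It rose by 3.79 (SE 0.29, adjusted p = 5.02e-06) in WT and 4.16 (SE 0.27) in ΔZF1. In E14 cells Dkk1 went from 1 read in 3 ESC libraries to 50 in 3 NPC libraries, with 9.06, 14.97 and 36.2 normalized counts in NPCs. From 0 reads in Podxl pA ESCs to 80 in NPCs the rise was at least 22.2-fold, with 3 reads allowed over the group. Sfrp1, in contrast, fell in all 5 lines. It had 906 and 801 in ESC-WT, 1638 and 1525 in ESC-ΔZF1, 210.0 and 280.4 in NPC-WT and 802 and 724 in NPC-ΔZF1, and its log2 fold change was -1.81 (SE 0.16, adjusted p = 1.19e-05) in WT. Sfrp1 values in the second table were 215, 194 and 159 in E14 ESCs, 174, 166 and 159 in Podxl pA ESCs and 179, 209 and 193 in Grb10 pA ESCs, against 110.2, 116 and 113 in E14 NPCs, 80.3, 116 and 119.8 in Podxl pA NPCs and 103, 138 and 108 in Grb10 pA NPCs, with -0.76 (SE 0.15) in E14.

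Sfrp2 changed direction between the tables. In the rescue lines it had 415 and 479 in ESC-WT, 540.1 and 473 in ESC-ΔZF1, 148 and 233 in NPC-WT and 332 and 331 in NPC-ΔZF1, with -1.27 (SE 0.21) in WT and -0.61 (SE 0.19) in ΔZF1. The ΔZF1 call was lost without ESC-ΔZF1 replicate 1 (adjusted p = 0.151) or either NPC-ΔZF1 library. In E14 and the truncation lines Sfrp2 had 49.8, 28.0 and 27.2 in E14 ESCs, 37.8, 51.0 and 60.1 in Podxl pA ESCs and 41.4, 62.8 and 54.1 in Grb10 pA ESCs, against 202, 177 and 152 in E14 NPCs, 175, 163 and 147 in Podxl pA NPCs and 165, 185 and 199 in Grb10 pA NPCs, and every NPC library was above every ESC library, with a log2 fold change of 2.32 (SE 0.20, adjusted p = 1.63e-10) in E14. Sfrp4 had 72.8 and 62.1 in ESC-WT, 22.0 and 28.6 in ESC-ΔZF1, 7.47 and 7.58 in NPC-WT and 1.86 and 3.24 in NPC-ΔZF1, fell in WT (-3.13, SE 0.39) and was not called in E14. Sfrp5 had 86.3 and 41.4 in ESC-WT, 60.9 and 94.1 in ESC-ΔZF1, 47.1 and 63.7 in NPC-WT and 163 and 164 in NPC-ΔZF1. In ΔZF1 it rose by 1.07 on the log2 scale, a call lost without ESC-ΔZF1 replicate 1 (adjusted p = 0.136) or either NPC-ΔZF1 library. Dkk3 was not called in the rescue lines and rose by 1.77 (SE 0.44) in E14, from 13 reads to 44.

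The targets did not move as a group. Axin2, the scaffold that β-catenin switches on as feedback, had 1102 and 1216 in ESC-WT, 787 and 693 in ESC-ΔZF1, 711 and 1000.3 in NPC-WT and 681 and 660.4 in NPC-ΔZF1. Its log2 fold change in NPC-WT was -0.45 (SE 0.16, adjusted p = 0.0421), below the cutoff in size, and that in NPC-ΔZF1 was -0.14 (SE 0.16, adjusted p = 0.506). In E14 and the truncation lines it had 408, 342 and 308 in E14 ESCs, 357, 364 and 377 in Podxl pA ESCs and 365, 467 and 390.1 in Grb10 pA ESCs, against 122, 84.8 and 104 in E14 NPCs, 134, 122 and 124 in Podxl pA NPCs and 68.2, 93.0 and 72.6 in Grb10 pA NPCs. Here it fell in all 3 lines without overlap between NPC and ESC libraries, with log2 fold changes of -1.82 (SE 0.14, adjusted p = 2.19e-11) in E14, -1.53 (SE 0.13) in Podxl pA and -2.41 (SE 0.14) in Grb10 pA. Sp5, a transcription factor switched on by β-catenin, had 181 and 170.2 in ESC-WT, 307 and 250.1 in ESC-ΔZF1, 35.1 and 59.1 in NPC-WT and 121 and 117 in NPC-ΔZF1, which gives -1.96 (SE 0.25) in WT and -1.22 (SE 0.21) in ΔZF1. In the second table Sp5 had 117, 94.2 and 107 in E14 ESCs, 91.7, 109 and 132 in Podxl pA ESCs and 82.8, 105 and 92.8 in Grb10 pA ESCs, against 1.51, 1.43 and 6.29 in E14 NPCs, 5.99, 2.63 and 3.89 in Podxl pA NPCs and 2.10, 4.65 and 0 in Grb10 pA NPCs, and its log2 fold change was -5.27 (SE 0.37) in E14. Its NPC libraries there held 7 reads in E14, 13 in Podxl pA and 8 in Grb10 pA.

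Notum, the enzyme that inactivates Wnt proteins, fell in all 5 lines. It had 267 and 259 in ESC-WT, 228 and 216 in ESC-ΔZF1, 32.1 and 48.5 in NPC-WT and 19.3 and 31.1 in NPC-ΔZF1, with -2.76 (SE 0.26) in WT. Notum values in the second table were 127, 135 and 121 in E14 ESCs, 159.7, 128 and 123 in Podxl pA ESCs and 89.8, 106 and 125 in Grb10 pA ESCs, against 48.3, 51.3 and 36.2 in E14 NPCs, 31.2, 24.6 and 31.9 in Podxl pA NPCs and 4.20, 8.14 and 7.98 in Grb10 pA NPCs, and its log2 fold change was -1.47 (SE 0.18) in E14, -2.24 (SE 0.18) in Podxl pA and -4.06 (SE 0.24) in Grb10 pA. Tcf7, a DNA binding partner of β-catenin, had 1631 and 1712 in ESC-WT, 1096 and 1133 in ESC-ΔZF1, 1588 and 1381 in NPC-WT and 741 and 716 in NPC-ΔZF1. Its WT value of -0.17 (SE 0.11) was not called, and it fell in ΔZF1, at -0.61 (SE 0.11). The difference between these lines, -0.44 on the log2 scale, was not called. In E14 and the truncation lines Tcf7 had 499, 401 and 337 in E14 ESCs, 409, 385 and 497 in Podxl pA ESCs and 411, 333 and 439.8 in Grb10 pA ESCs, against 293, 249 and 242 in E14 NPCs, 313, 295 and 268 in Podxl pA NPCs and 301, 348 and 318 in Grb10 pA NPCs, a log2 fold change of -0.68 (SE 0.13) in E14. The Podxl pA value, -0.54, was -0.43 without ESC replicate 3 of that line and -0.48 without NPC replicate 3, below the cutoff in size.

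Lef1, the other DNA binding partner listed, rose where Notum and Sp5 fell. It had 51.2 and 54.1 in ESC-WT, 24.6 and 26.2 in ESC-ΔZF1, 123 and 119.7 in NPC-WT and 230.0 and 213 in NPC-ΔZF1, a rise of 1.20 (SE 0.20, adjusted p = 0.000762) in WT and 3.12 (SE 0.20) in ΔZF1. Lef1 values in the second table were 9.15, 7.99 and 3.62 in E14 ESCs, 1.08, 4.37 and 7.21 in Podxl pA ESCs and 2.02, 6.44 and 1.11 in Grb10 pA ESCs, against 266, 239 and 277 in E14 NPCs, 356, 356 and 298 in Podxl pA NPCs and 123, 173 and 138 in Grb10 pA NPCs. Its rise was 5.08 (SE 0.24, adjusted p = 1.51e-15) in E14, 6.46 (SE 0.27) in Podxl pA and 5.61 (SE 0.32) in Grb10 pA, from ESC levels of at most 9.15 normalized counts. Nkd1, an inhibitor that binds Dvl, had 64.7 and 90.9 in ESC-WT, 101 and 101 in ESC-ΔZF1, 163 and 171 in NPC-WT and 166 and 163 in NPC-ΔZF1. It rose by 1.04 (SE 0.20) in WT and 0.70 (SE 0.18) in ΔZF1, where the call was lost without any of the 4 libraries compared (adjusted p up to 0.0794, without ESC-ΔZF1 replicate 2). Its paralog Nkd2 had 72.8 and 72.5 in ESC-WT, 38.9 and 27.4 in ESC-ΔZF1, 120.3 and 153 in NPC-WT and 85.2 and 82.4 in NPC-ΔZF1. Nkd2 rose in all 5 lines, by 0.90 (SE 0.23) in WT, a call lost without ESC-WT replicate 2 (adjusted p = 0.0783). Summed over the 7 targets, the level was 59.7 to 62.5 CPM per kilobase in ESC-WT, 47.6 in both NPC-WT libraries, 63.7 to 83.4 in E14 ESCs and 37.7 to 43.3 in E14 NPCs.

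**Figure D3:**
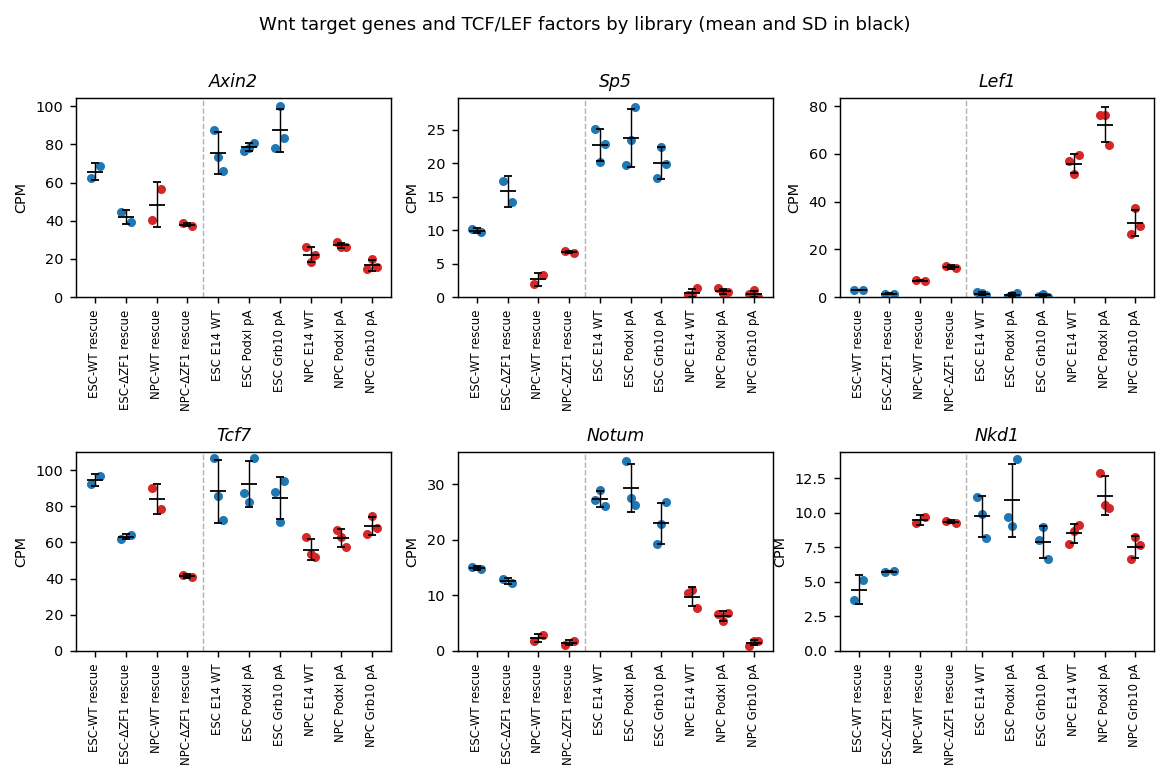
CPM of Axin2, Sp5, Lef1, Tcf7, Notum and Nkd1 in each of the 10 groups. Points are libraries, and bars give the mean and SD over 2 libraries in the rescue groups and 3 in the others. Sp5 and Notum are lower in NPCs than in ESCs of every line, Lef1 is higher, and Axin2 is lower in the NPCs of E14, Podxl pA and Grb10 pA without overlap.

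Per length of exon, the order of levels changed between the cell types. In ESC-WT, Tcf7 was highest at 36.1 ± 1.24 CPM per kilobase (SD, n = 2), followed by Fzd5 at 29.6 ± 0.666 and Lrp6 at 17.2 ± 0.336, and none of these intervals of mean and SD overlapped. In NPC-WT, Wnt6 led at 44.8 ± 13.3, with Tcf7 at 32.1 ± 3.17 and Fzd7 at 20.3 ± 1.94, and the intervals of Wnt6 and Tcf7 overlapped. In NPC-ΔZF1 the top 5 were Fzd7, Lgr4, Wnt6, Wnt8a and Lrp6, between 20.2 and 16.8. In E14 ESCs, Tcf7 at 33.7 ± 6.68 (SD, n = 3) and Fzd10 at 27.7 ± 2.66 led, again with overlapping intervals. E14 NPCs were led by Lgr4 at 35.5 ± 3.27, Fzd7 at 30.8 ± 3.02 and Tcf7 at 21.3 ± 2.25, where the first pair overlapped and Tcf7 did not reach them.

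Other genes of the pathway also changed with differentiation, and with different counts in the 2 tables. Of 37 further pathway genes tested in the rescue lines (ligand processing, Dvl proteins, the destruction complex, β-catenin cofactors and planar polarity), 18 rose and 4 fell in NPC-WT (22.0% and 19.9% of all genes). Among them were Wls, which carries Wnt proteins to the cell surface (3.07, SE 0.22), the cofactor Bcl9l (3.41, SE 0.18) and the receptor Ror1 (4.31, SE 0.27). In E14, 5 of 32 rose, a share near that of all genes (16.5%), and 10 fell (16.3% of all genes), with Wls at 1.99 (SE 0.22), Ror1 at a mean of 20.4 normalized counts against 0.266 in ESCs, and the polarity gene Celsr1 at -1.64 (SE 0.12). Of 16 other genes known to respond to the pathway, Apcdd1, Rnf43 and Znrf3 are also among the pathway genes just counted. Of the 16, 5 rose and 8 fell in NPC-WT, and 6 of 15 rose and 7 fell in E14, beside the same shares of all genes. Cdx1, a posterior patterning factor, fell in both, with -2.37 (SE 0.23) in WT rescue and -7.15 (SE 0.21) in E14. Cdx2 rose by 3.11 (SE 0.23) and 2.01 (SE 0.36). Myc rose in both, by 1.81 and 2.76, and the pluripotency genes Nanog, Esrrb and Klf2, which are on this list, fell in both. Ccnd1 fell in WT rescue (-1.17, SE 0.12) and rose in E14 (0.74, SE 0.09).

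To compare ΔZF1 with WT rescue in ESCs, 46 Wnt genes were tested. Sfrp1 was higher in ESC-ΔZF1 and Fzd2, Lef1, Nkd2 and Tcf7 were lower, which is 1 and 4 genes where 1.29% and 2.33% of all genes were called. By the values given above, the 2 ΔZF1 libraries lay beyond both WT libraries in each of the 5. This adds no support, since the 5 were called on these same libraries. The log2 fold changes were 0.90 (SE 0.15, adjusted p = 0.0164) for Sfrp1, -1.06 (SE 0.24, adjusted p = 0.0432) for Lef1, -1.14 (SE 0.27, adjusted p = 0.0490) for Nkd2, -0.74 (SE 0.16, adjusted p = 0.0387) for Fzd2 and -0.59 (SE 0.11, adjusted p = 0.0239) for Tcf7. Of the 16 ligands tested, 0 were called by edgeR and 2 had an unadjusted p under 0.05, where 3019 of all 16641 genes did. The 2 were Wnt2b and Wnt5a, with means of 5.52 and 1.30 normalized counts in ESC-ΔZF1 against 15.7 and 9.42 in ESC-WT. Axin2 had a log2 fold change of -0.65 (SE 0.16, adjusted p = 0.0556) and Sp5 of 0.67 (SE 0.22, adjusted p = 0.121), in opposite directions and not called. Axin2 lies on chromosome 11, and its value with that chromosome's median in the model is given below. The 5 genes had adjusted p-values from 0.116 to 0.350 when any of the 4 ESC libraries was left out, and 0 Wnt genes were then called, where the group left with a single library was taken to vary like the others. Lef1 and Nkd2 also missed the threshold with DESeq2 (adjusted p = 0.0809 and 0.0504) and with the replicate block (adjusted p = 0.0694 and 0.0796), Lef1 when genes of low count were kept in (adjusted p = 0.0558) and Nkd2 with RLE normalization (adjusted p = 0.0562).

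Fzd2, Tcf7, Axin2, Notum, Wnt3, Wnt3a, Wnt9a and Wnt9b lie on chromosome 11. All 1322 genes tested on that chromosome had a median log2 fold change of -0.46 for ΔZF1 in ESCs and -0.57 in NPCs, against 0.02 and 0.04 for genes elsewhere, and these 8 had medians of -0.64 and -0.68. With the chromosome's median taken into the model, Fzd2 was at -0.28 in ESCs and Tcf7 at -0.13, and neither was called. In the same model Axin2 was at -0.19 in ESCs (adjusted p = 0.657), where the value without it was -0.65. Lef1 and Nkd2, which lie elsewhere, stayed at -1.06 and -1.14 in that model and missed the threshold (adjusted p = 0.0681 and 0.0773), so that 1 gene, Sfrp1, was called. Whether this lower level is a property of the line or of the protein cannot be told apart. The same change to the model brought Fzd2 and Tcf7 to -0.46 each in NPCs, where neither was then called. It brought Wnt9a to -0.80 (adjusted p = 0.0108) and Wnt3 to 0.71 (adjusted p = 0.0237), where the values without it were -1.37 and 0.15. Axin2 in NPCs was at -0.34 without it and at 0.22 with it (adjusted p = 0.357), and was called in neither model.

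In NPCs, 9 Wnt genes were higher in ΔZF1 than in WT rescue and 9 were lower, where 7.19% and 10.5% of all genes were. Of 16 ligands tested, 6 were lower, namely Wnt4, Wnt6, Wnt7b, Wnt9a, Wnt10a and Wnt10b, and Wnt8a was higher. The NPC-ΔZF1 libraries lay beyond both NPC-WT libraries in all 7, which adds no support, since the 7 were called on these same libraries. The log2 fold changes were -1.32 (SE 0.21, adjusted p = 0.00237) for Wnt6, -1.12 (SE 0.18, adjusted p = 0.00239) for Wnt4 and -1.37 (SE 0.17, adjusted p = 0.000716) for Wnt9a. For Wnt10a the value was -1.23 (SE 0.33), for Wnt10b -1.50 (SE 0.31), for Wnt7b -0.67 (SE 0.14) and for Wnt8a 0.78 (SE 0.20). These last 4 lost their calls without either NPC-ΔZF1 library, with adjusted p-values from 0.0556 for Wnt7b to 0.181 for Wnt10a. Wnt3 was not called, at 0.15 (SE 0.18, adjusted p = 0.586), and was called higher with the median of chromosome 11 in the model.

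The antagonists that differed were all higher in NPC-ΔZF1. Sfrp1 was at 1.66 (SE 0.15, adjusted p = 0.000178), Sfrp5 at 1.60 (SE 0.30) and Sfrp2 at 0.83 (SE 0.20), the last of these without a call when either NPC-ΔZF1 library was left out (adjusted p = 0.105 and 0.103) and at 0.504 without NPC-WT replicate 1. Dkk1 did not pass the test (0.32, SE 0.20, adjusted p = 0.276). Among receptors, Fzd4 was higher by 1.47 (SE 0.15, adjusted p = 0.000317), Lgr4 by 0.85 (SE 0.13, adjusted p = 0.00189) and Fzd10 by 0.62 (SE 0.18), and Fzd2 was lower, at -1.02 (SE 0.13, adjusted p = 0.000871). Fzd10 was at 0.31, below the cutoff, without NPC-WT replicate 1, at 0.94 without NPC-WT replicate 2, and had adjusted p-values of 0.177 and 0.183 without NPC-ΔZF1 replicate 1 or 2. The targets split, with Sp5 at 1.41 (SE 0.24, adjusted p = 0.00362) and Lef1 at 0.86 (SE 0.16, adjusted p = 0.00501) on the higher side, and Tcf7 at -1.03 (SE 0.11, adjusted p = 0.000365) and Nkd2 at -0.69 (SE 0.21) on the lower. Lef1 lost its call without NPC-ΔZF1 replicate 1 (adjusted p = 0.0764), and Nkd2 without either (adjusted p = 0.185 and 0.222). The count of 18 was 10 without NPC-ΔZF1 replicate 1 and 11 without NPC-ΔZF1 replicate 2.

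Beside these values, all 9 extraembryonic endoderm markers were higher in NPC-ΔZF1 than in NPC-WT, with sums of 15405 to 16188 against 2099 to 2320, and none was at 0. The sums of the surface ectoderm markers were 1392 to 1419 against 1936 to 1944, and those of the neural progenitor markers 3147 to 3239 against 2379 to 3112. The mesoderm markers summed to 294 to 306 against 146 to 172, with Mesp1 and Msgn1 at 0 in NPC-WT. The part of these markers in the Wnt results was not tested. Of the 37 further pathway genes, 3 were higher, near the share of all genes (7.19%), and 9 lower in NPC-ΔZF1 (10.5% of all genes), among them the Wnt antagonist Frzb at 3.08 (SE 0.55), the Dkk receptor Kremen1 at -1.22 (SE 0.13) and Bcl9l at -1.14 (SE 0.16). Beside the same shares, 4 of the 16 other responsive genes were higher, Cdx1 (1.46, SE 0.22), Cdx4, Ccnd1 and Tnfrsf19, and 3 were lower, Klf2 (-1.16, SE 0.18), Ascl2 and Znrf3.

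The effect of ΔZF1 differed between NPCs and ESCs for 4 of the 46 genes, where 2.70% of all genes were called. The difference was 1.92 (SE 0.29, adjusted p = 0.0103) for Lef1, which was lower in ESC-ΔZF1 and higher in NPC-ΔZF1. It was 1.33 (SE 0.23, adjusted p = 0.0175) for Fzd4, 1.03 (SE 0.18, adjusted p = 0.0185) for Lgr4 and -1.62 (SE 0.30, adjusted p = 0.0224) for Wnt9a, none of which was called in ESCs. All 4 lost their calls when any ESC library or either NPC-ΔZF1 library was left out, with adjusted p-values from 0.0512 for Lef1 without ESC-WT replicate 1 to 0.166 for Wnt9a without ESC-WT replicate 2. Without NPC-WT replicate 1 the count was 10, and without NPC-WT replicate 2 it was 13.

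**Figure D4:**
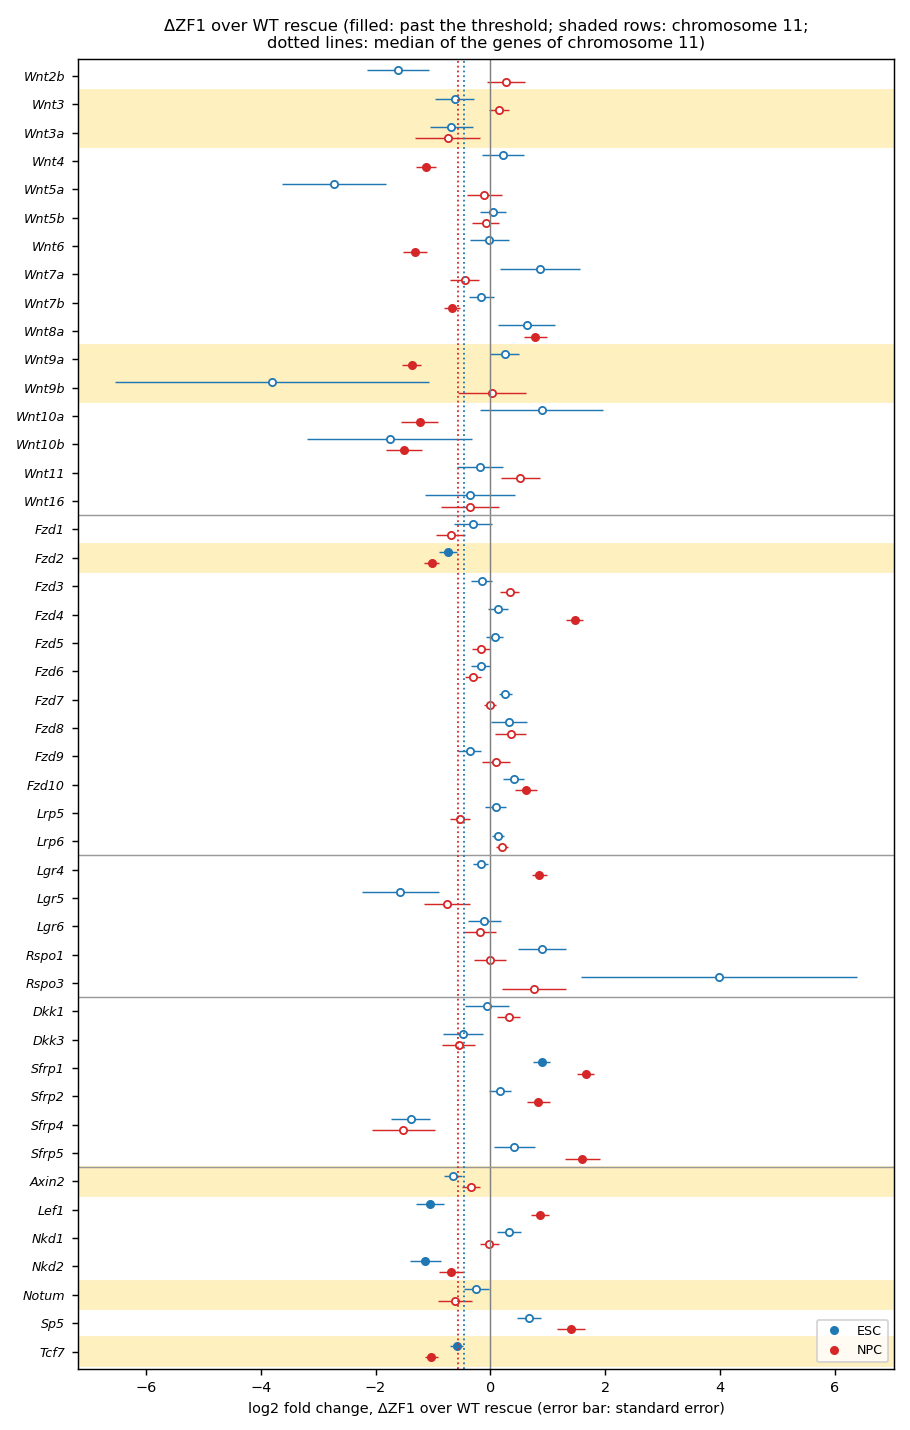
Log2 fold change of ΔZF1 over WT rescue in ESCs and in NPCs for each Wnt gene tested, with its SE. Filled points passed the test, shaded rows are genes on chromosome 11, and the dotted lines are the medians of all genes tested on that chromosome, -0.46 in ESCs and -0.57 in NPCs. Sfrp1 lies to the right in both cell types, and 6 of the 7 ligands called in NPCs lie to the left.

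Truncation of the Podxl RNA was compared with E14 WT in each cell type, and no Wnt gene was called in ESCs, in NPCs or in the difference between them. The share of all genes called was 0.339%, 0.550% and 0.0980%. At an unadjusted p under 0.05 there were 1, 7 and 5 of the 35 genes, where 1220, 1350 and 1355 of all 13268 genes were. DESeq2 called 0 Wnt genes in each. In NPCs the 7 were Wnt3a, Wnt8a (-0.90, SE 0.24, adjusted p = 0.105), Notum (-0.67, SE 0.21, adjusted p = 0.200), Lef1 (0.38, SE 0.14), Axin2 (0.33, SE 0.15), Fzd5 and Lrp6. Axin2 values of 134, 122 and 124 in Podxl pA NPCs were next to 122, 84.8 and 104 in E14 NPCs, so that 1 E14 library reached the level of the Podxl pA libraries. Median log2 fold changes over the 35 genes were 0.02 in ESCs and 0.08 in NPCs. With only these 6 NPC libraries in the model, 1 Wnt gene was called. The 9 endoderm markers had sums of 2703 to 2743 in Podxl pA NPCs and 1360 to 1575 in E14 NPCs. The neural progenitor markers summed to 497 to 512 in Podxl pA NPCs and 640 to 703 in E14 NPCs. The sums of the pluripotency, mesoderm and surface ectoderm markers overlapped between these groups. The part of the markers in these values was not tested.

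More Wnt genes were called for the Grb10 pA line than for the Podxl pA line, and the same held for all genes. Of all genes, 9.09% were called for Grb10 pA in ESCs and 0.339% for Podxl pA. The shares in NPCs were 16.5% and 0.550%. In ESCs, Dkk3, Fzd9 and Wnt7b were higher than in E14 and Fzd2 and Wnt3a were lower, which is 3 and 2 of 35 where 4.51% and 4.58% of all genes were called. Fzd9 had log2 fold changes of 1.05 (SE 0.24, adjusted p = 0.00313) in ESCs and 0.86 (SE 0.26, adjusted p = 0.0148) in NPCs, and its ESC libraries did not overlap those of E14. In NPCs its call was lost without Grb10 pA replicate 1 (adjusted p = 0.0882) or E14 replicates 2 or 3 (adjusted p = 0.0672 and 0.0745). Dkk3 had 12.9 to 21.2 normalized counts in Grb10 pA ESCs and 4.07 to 5.43 in E14 ESCs, a log2 fold change of 1.99 (SE 0.43, adjusted p = 0.00203). Wnt3a had 7.06 to 19.3 against 31.9 to 41.7, a log2 fold change of -1.55 (SE 0.34, adjusted p = 0.00214). Wnt7b, at 1.61 (SE 0.55, adjusted p = 0.0470), rested on 20 reads against 7. Fzd2, at -1.11 (SE 0.33, adjusted p = 0.0218), lost its call without Grb10 pA ESC replicate 2 (adjusted p = 0.0728), the library led by a few abundant genes, or without E14 ESC replicate 2 (adjusted p = 0.237), and without the latter the count of Wnt genes called was 3 in place of 5.

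In Grb10 pA NPCs, 2 Wnt genes were higher than in E14 NPCs and 7 were lower (7.90% and 8.64% of all genes). Notum had 4.20, 8.14 and 7.98 normalized counts against 48.3, 51.3 and 36.2 in E14 NPCs, a log2 fold change of -2.86 (SE 0.28, adjusted p = 2.37e-08). Dkk1, another target of β-catenin that inhibits the pathway, was lower too, at -2.21 (SE 0.50, adjusted p = 0.00170), with 2.33 to 6.38 against 9.06 to 36.2. Lef1 was at -0.86 (SE 0.14, adjusted p = 6.68e-05), Wnt8a at -1.43 (SE 0.25, adjusted p = 0.000104) and Fzd6 at -0.95 (SE 0.18, adjusted p = 0.000284). In each the 3 Grb10 pA libraries lay below the 3 of E14, which adds no support, since the genes were called on these same libraries. Wnt3a was lower from 9 reads to 1, a ratio of 0.0747 (95% counting interval 0.00170 to 0.539). Axin2, with 68.2, 93.0 and 72.6 against 122, 84.8 and 104, did not pass the test (-0.40, SE 0.16, adjusted p = 0.0591), and neither did Sp5, with 8 reads against 7. Wnt9a was higher, at 1.60 (SE 0.32, adjusted p = 0.000407). Fzd10 was lower at -0.63 (SE 0.18), which was -0.49 without Grb10 pA NPC replicate 2 and -0.49 without E14 NPC replicate 3, under the cutoff in size.

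The difference between Grb10 pA and E14 cells was not equal in NPCs and ESCs for 4 genes, where 5.90% of all genes were called. Notum differed by -2.60 (SE 0.32, adjusted p = 1.95e-05) and Fzd10 by -0.91 (SE 0.21, adjusted p = 0.00930). Lgr4 differed by 0.74 (SE 0.13, adjusted p = 0.000703), from -0.34 (SE 0.10) in ESCs and 0.41 (SE 0.09) in NPCs, both under the cutoff in size. Fzd2 differed by 1.30 (SE 0.35, adjusted p = 0.0257), and this call was lost without Grb10 pA ESC replicate 2 (adjusted p = 0.0605) or E14 ESC replicate 2 (adjusted p = 0.208). Of the 32 further pathway genes, 4 were higher and 1 lower in Grb10 pA NPCs, where 7.90% and 8.64% of all genes were, including Tcf7l1 (0.69, SE 0.12) and Tcf7l2 (0.98, SE 0.21), which like Tcf7 and Lef1 bind DNA for β-catenin. Beside the same shares, 5 of 15 other responsive genes were lower, among them Cdx2 (-2.75, SE 0.36) and Ccnd1 (-0.58, SE 0.09), and the pluripotency genes Esrrb (0.98, SE 0.11) and Nanog (0.66, SE 0.09) were higher. The neural progenitor markers summed to 299 to 334 in Grb10 pA NPCs and 640 to 703 in E14 NPCs, the pluripotency markers to 3618 to 3895 and 2956 to 3391, and the mesoderm markers to 292 to 356 and 157 to 173. The endoderm markers summed to 1087 to 1417 in Grb10 pA NPCs and 1360 to 1575 in E14 NPCs, and the surface ectoderm markers to 164 to 170 and 184 to 206. On chromosome 8, which holds Nkd1 and Sfrp1, the median of all genes tested was -0.49 in Grb10 pA ESCs and -0.48 in Grb10 pA NPCs against E14, and neither of them was called there. The part of the markers in these differences was not tested.

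**Figure D5:**
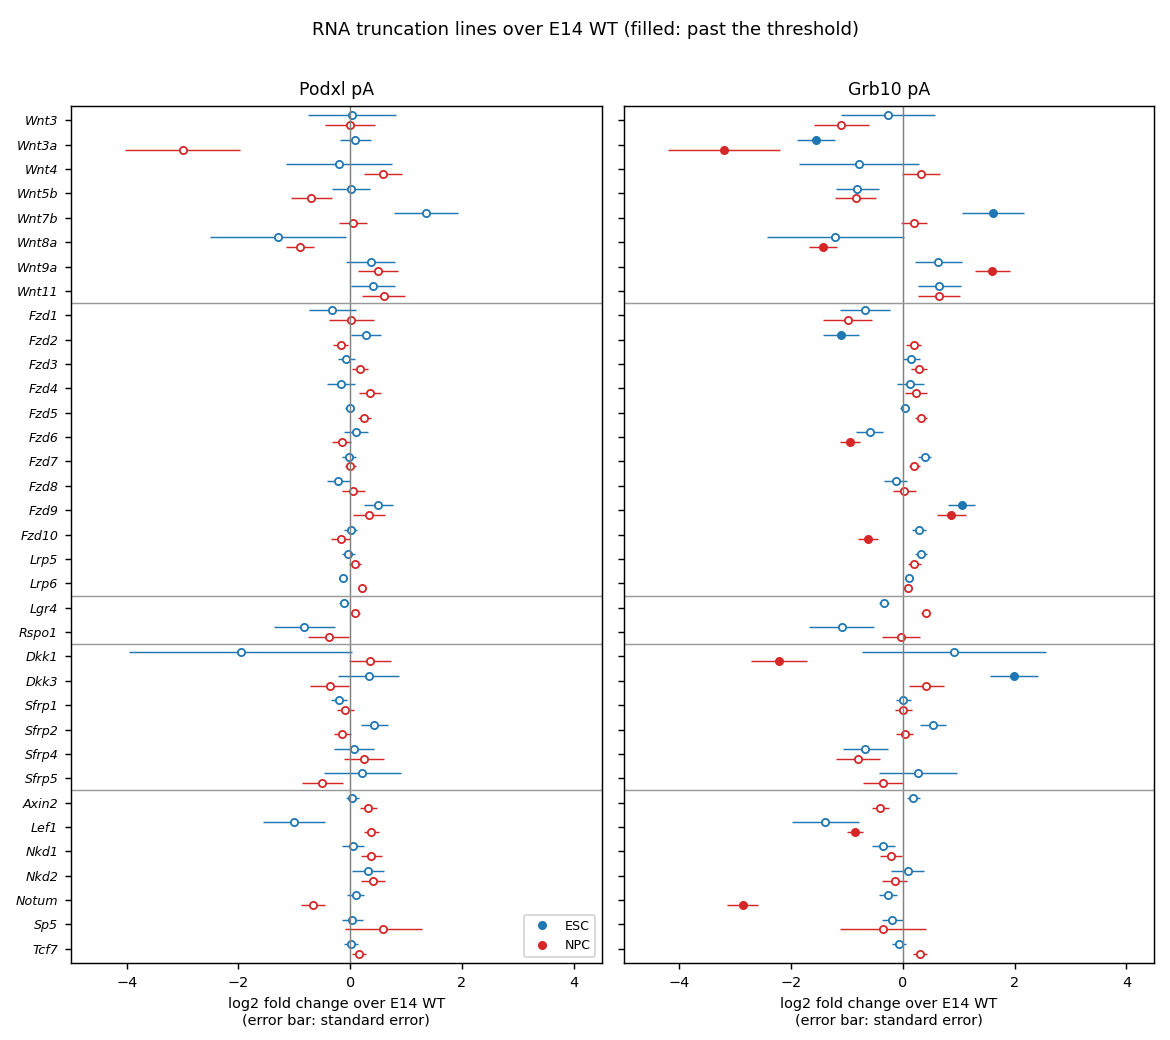
Log2 fold change of Podxl pA and of Grb10 pA over E14 WT, in ESCs and in NPCs, for each of the 35 Wnt genes tested, with its SE. Filled points passed the test. No point is filled for Podxl pA, and in Grb10 pA NPCs Notum lies at -2.86.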

How the data were processed

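RNA depleted of ribosomal RNA was sequenced from 26 libraries of 10 groups, taken from the labels, with 2 or 3 libraries each. The authors aligned reads to mm10 with STAR at default parameters, counted them per gene symbol with featureCounts, without strand per the file label, and deposited these whole-number counts in 2 tables. Of the columns of E14 and the truncation lines, 3 match no sample and were not used.

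Each table was fitted separately with edgeR 4.0.16 in R 4.3.3 (TMM normalization, filterByExpr, quasi-likelihood F test, all groups of the table in the model), with Benjamini-Hochberg adjustment over 16641 genes in the rescue table and 13268 in the other. The fit was tested on simulated data. Normalized counts are counts scaled to the mean TMM library size of a table, and levels between genes are CPM per kilobase of GENCODE M21 exons. Every Wnt gene may be named, and values per library are given for genes called at least once in a table with a group mean of at least 50 normalized counts there. They are also given for Axin2 in both tables and for Lrp6 in the rescue table. The Wnt genes, the other gene lists and the marker lists were chosen with earlier results of these data known. For 1 to 3 reads in a group, the ratio of reads is given with an exact binomial 95% interval, and for 0 reads a bound at 3 reads over the group, in place of the fitted fold. Alternatives were RLE normalization, DESeq2 1.42.0, other filters and cutoffs, fewer groups in the model, chromosome medians as offsets, a replicate block and leaving out each library.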

Additional observations from a re-analysis of the deposited data

Results flagged for a closer look

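For 8 results a difference of an effect between ESCs and NPCs passed the test of the difference itself (edgeR's quasi-likelihood F test, Benjamini-Hochberg adjustment). The log2 fold change of ΔZF1 over WT rescue in NPCs less that in ESCs was 1.92 for Lef1 (adjusted p = 0.0103) and 1.33 for Fzd4 (adjusted p = 0.0175). It was 1.03 for Lgr4 (adjusted p = 0.0185) and -1.62 for Wnt9a (adjusted p = 0.0224). Each of these 4 calls was lost when any ESC library or either NPC-ΔZF1 library was left out, with adjusted p-values from 0.0512 to 0.166. Lef1 was lower in ESC-ΔZF1 (adjusted p = 0.0432) and higher in NPC-ΔZF1 (adjusted p = 0.00501), and the call in ESCs was lost under 9 of 12 alternatives, DESeq2 (adjusted p = 0.0809) and no filter (adjusted p = 0.0558) among them.

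The difference between Grb10 pA and E14 cells, in which truncation and line cannot be told apart, was not equal in NPCs and ESCs. The value in NPCs less that in ESCs was -2.60 for Notum (adjusted p = 1.95e-05), 0.74 for Lgr4 (adjusted p = 0.000703), -0.91 for Fzd10 (adjusted p = 0.0093) and 1.30 for Fzd2 (adjusted p = 0.0257). The value for Fzd2 had an adjusted p of 0.0605 without Grb10 pA ESC replicate 2 and of 0.208 without E14 ESC replicate 2.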

How the results depend on the processing

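Of 148 calls of named Wnt genes over all comparisons, 111 passed under every alternative, 37 were lost under at least 1, and 0 changed sign. The counts of Wnt genes called with RLE normalization and with DESeq2 were within 1.5 times the reported ones in all 14 comparisons. The cause of the changes below was not tested, except that a filter of 10 counts in every library leaves out genes that are low in 1 group. With that filter the counts were 10 in E14 differentiation, 11 in Podxl pA and 10 in Grb10 pA differentiation, 1 in Grb10 pA ESCs, 3 in Grb10 pA NPCs and 2 in the Grb10 interaction. An adjusted p cutoff of 0.01 gave 0 for ΔZF1 in ESCs, 0 for the ΔZF1 interaction and 3 in Grb10 pA ESCs. With no filter the ΔZF1 interaction had 7. With a model of just the groups compared, the counts were 9 for ΔZF1 in ESCs, 1 for Podxl pA in NPCs and 3 in Grb10 pA ESCs. With the median of chromosome 11 in the offsets, 1 gene was called for ΔZF1 in ESCs, and in NPCs 10 were higher and 7 lower, against 9 and 9 without it.

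Replicate numbers did not pair the libraries, since correlations of same-numbered libraries across groups ranged from -0.169 to 0.144 in the rescue table and from -0.212 to 0.157 in the other. With the replicate block, 2 genes were called for ΔZF1 in ESCs in place of 5, and the other 13 counts stayed within 1.5 times. Leaving out each library in turn gave 0 to 0 calls for ΔZF1 in ESCs, 10 to 24 in NPCs and 0 to 13 in the interaction (10 without NPC-WT replicate 1, 13 without NPC-WT replicate 2, 0 without any other library compared), and 3 to 6 in Grb10 pA ESCs. It gave 28 to 37 for WT rescue differentiation, 29 to 32 for ΔZF1, 22 to 24 for E14, 22 to 25 for Podxl pA, 21 to 23 for Grb10 pA, 7 to 10 in Grb10 pA NPCs, 3 to 5 in the Grb10 interaction and 0 in every Podxl pA comparison. In the rescue table such a fit leaves 1 library in a group, which is assumed to vary like the others. Depth limits the low genes: 18 of 53 Wnt genes were not tested in the second table.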

Other observations

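The genes whose levels followed Axin2 most closely were compared over all libraries of a table by Pearson's correlation of log2(CPM + 0.5), among genes expressed in that table. Over the 8 rescue libraries and 11924 genes they were Eif5a and Guk1 (0.98 each), Blvra (0.98), Dpm3 (0.98) and Nle1 (0.97). Axin2, Eif5a, Guk1 and Nle1 lie on chromosome 11, whose genes were lower as a whole in ΔZF1, and the part of this shift in the likeness was not tested. Over the 18 libraries of E14 and the truncation lines and 9279 genes they were Tcl1 (0.99), Dnajc6 (0.99), Ggt1 (0.99), Morc1 (0.99) and Klf4 (0.98), of which Tcl1 and Klf4 are known from ESCs. No gene was on both lists. The libraries share their groups and cell types, so that these values describe the likeness of profiles across groups.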
